A study of Mus musculus with 6 samples.

Results

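The cytosolic ribosomal protein genes encode the proteins of the large and small subunits of the ribosome that translates nuclear mRNAs. Members were chosen by symbol alone: protein-coding mouse genes named Rpl or Rps with a number and an optional a, x or y, plus Rplp0, Rplp1, Rplp2, Rpsa and Fau. The rule found 77 members, 46 of the large and 31 of the small subunit, among the 47729 genes counted in every library. It leaves out the l-suffixed paralogs, the pseudogenes and ribosome components with other kinds of names, such as Rps3a1 and Rack1. The members lie on 20 chromosomes, 14 of them on chromosome 7 and 4 on the X chromosome.

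RNA-seq was done on cells enriched with CD144 beads from ischemic hindlimb muscle of mice, 2 libraries in each of 3 groups. WT + GFP were wild-type mice injected with Ad-GFP, an adenovirus expressing green fluorescent protein. KO + GFP were Leene knockout mice given the same virus, and KO + LEENE were knockout mice given Ad-LEENE, which per the study carries human LEENE with a GFP tag. KO, shared by both of the latter groups, is a CRISPR deletion of the mouse region syntenic to the long noncoding RNA gene LEENE, with wild-type littermates as controls. All mice received a high-fat, high-sucrose diet and hindlimb ischemia surgery on day 0, with intramuscular virus on day 1 and day 4 per the labels, and muscle was taken after 1 week. The study's methods give another day for the second injection. The labels give neither age nor sex, and do not say whether the 2 libraries of a group came from different mice. The file headers carry 3 facility sample numbers over the 6 libraries, 1 for each group, so the P values below measure the spread between libraries, which may be technical.

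Each library held between 1770992 and 5602603 counted reads. Of these, 50.08% and 50.88% came from mitochondrially encoded genes in WT + GFP, against 33.6% to 34.33% in the other 4 libraries. Cdh5, which encodes CD144 itself, had 332 and 283 reads for WT + GFP, 322 and 196 for KO + GFP, with 5 and 18 for KO + LEENE, and the genotype was not checked here against the deleted locus. The 15 endothelial markers together took 0.0944% to 0.0963% of reads for WT + GFP, 0.293% to 0.309% for KO + GFP, with 0.0346% to 0.0355% in KO + LEENE. In KO + GFP, Emcn, the sialomucin endomucin, alone gave 74.5% and 77.2% of these reads. Without it, a choice made after seeing the data, the shares were 0.096% and 0.0942%, then 0.0747% and 0.0706%, then 0.0342% and 0.0351%, so that WT + GFP was highest. Of the 13 endothelial markers tested, 4 were called higher (30.8%) and 5 lower (38.5%) for KO + GFP against WT + GFP. Of all tested genes, 34.2% were called higher and 35.9% lower. Among the markers called lower was the VEGF receptor Kdr, with 808 and 708 reads for WT + GFP against 13 and 9 for KO + GFP.

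Ribosomal proteins are assembled on ribosomal RNA in the nucleolus, and most are present once in each ribosome, so cells keep their output in proportion. Their mRNAs are among the most abundant of most mammalian cells. Many begin with a C followed by a run of pyrimidines, the 5′ terminal oligopyrimidine motif, through which the kinase mTORC1 and the RNA-binding protein Larp1 control their translation. Endothelial cells raise ribosome production when they grow and divide.

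The members share features at their promoters that the symbol rule did not use. RefSeq promoter windows on GRCm38.p6, 250 bases before to 50 after a start site, were at hand for 57 of the 77 members, 67 windows in all. A C at the annotated start base, with at least 5 pyrimidines in a row counted from it on, stood in 20.9% of members' windows. In all 32851 promoter windows it stood in 2.51%. This measure misses starts annotated a few bases off. A run of 6 or more pyrimidines within 15 bases of the start was in 55.2% against 29.2%. The letters CCGGAAG, a core site of ETS factors, occurred on either strand in 35.8% against 8.86%. The palindrome TCGCGA occurred in 20.9% against 2.5%, and ATGGCGG, a core of YY1 sites, in 17.9% against 4.05%. GGGCGG, the GC box, was in 61.2% against 35.7%, whereas TATAAA was in 8.96% against 13.6% and CCAAT in 31.3% against 37.4%. These are shares of windows and do not show that any factor was bound.

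Windows of 6 members are shown because their reads took different courses below: Rps9 and Rpl26 were highest in KO + GFP, Rps7 and Rps28 for WT + GFP and Rpl19 for KO + LEENE, while Rps6 was at or near 0 everywhere. Each runs 5′ to 3′ on the gene's strand, from 100 bases before the RefSeq start to 20 bases from it on, for Rpl19 at the first of its 2 starts. Capitals mark the ETS core on either strand, the palindrome, and a run of at least 5 pyrimidines across the start base.
Rps9, chr7:3703941-3704060, plus strand: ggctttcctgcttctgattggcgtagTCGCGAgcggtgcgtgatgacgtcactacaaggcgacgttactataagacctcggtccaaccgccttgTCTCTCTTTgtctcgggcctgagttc
Rpl26, chr11:68901466-68901585, plus strand: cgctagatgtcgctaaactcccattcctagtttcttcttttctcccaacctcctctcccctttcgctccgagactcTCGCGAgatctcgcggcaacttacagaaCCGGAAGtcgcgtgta
Rps7, chr12:28635934-28636053, minus strand: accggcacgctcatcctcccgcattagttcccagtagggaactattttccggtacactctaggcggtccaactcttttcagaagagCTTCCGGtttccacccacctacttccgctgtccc
Rps28, chr17:33824543-33824662, minus strand: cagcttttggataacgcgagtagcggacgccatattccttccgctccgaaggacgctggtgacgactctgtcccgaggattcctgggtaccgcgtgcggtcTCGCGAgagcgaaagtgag
Rpl19, chr11:98026610-98026729, plus strand: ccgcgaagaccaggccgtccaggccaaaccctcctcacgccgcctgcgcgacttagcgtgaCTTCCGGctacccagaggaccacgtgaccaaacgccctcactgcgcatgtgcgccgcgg
Rps6, chr4:86857348-86857467, minus strand: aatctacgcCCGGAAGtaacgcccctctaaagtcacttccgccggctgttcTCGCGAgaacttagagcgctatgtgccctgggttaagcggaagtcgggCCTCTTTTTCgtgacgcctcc

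Rps9 and Rps6 both have a pyrimidine run at the start. Rps9 was the member with the most reads for KO + GFP, and Rps6 had 1 read over the 6 libraries together, but Rps6 has 15 near-identical further copies in the genome, at which uniquely aligned reads can be lost. Split by the group in which a member was highest, CCGGAAG stood in 33.3% of 15 windows for WT + GFP, 32.5% of 40 for KO + GFP and 37.5% of 8 for KO + LEENE. The palindrome stood in 33.3%, 15% and 12.5% of the same windows. The other motifs differed in their order: ATGGCGG stood in 0%, 27.5% and 12.5%, and the C with its pyrimidine run at the start in 6.67%, 22.5% and 25%. A run of 6 or more pyrimidines within 15 bases of the start was in 46.7%, 55% and 62.5%. The CCAAT box was in 20%, 42.5% and 12.5%, the GC box in 60%, 62.5% and 50%, and the TATA box in 20%, 7.5% and 0%. Several windows come from the same gene and the groups of windows are small, so these shares are a description, and no difference between them was tested.

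Members took a larger share of reads in KO + GFP than in either other group. The share was 0.675% and 0.688% in WT + GFP, 2.79% and 2.76% in KO + GFP, with 0.522% and 0.532% for KO + LEENE. The large subunit made up 0.262% ± 0.0014 (SD, n = 2), 1.21% ± 0.011 and 0.278% ± 0.00339 of reads in these groups, and the small subunit 0.419% ± 0.00757, 1.56% ± 0.0124 and 0.248% ± 0.00339. The groups did not overlap, but 2 libraries against 2 cannot give an exact two-sided permutation P below 0.333. Among reads of nuclear genes only, the mean shares of all members were 1.38%, 4.22% and 0.794% in the same order. The leading member of each group gave a large part of its members' reads: Rps27a 17.9% in WT + GFP, Rps9 29% in KO + GFP and Rpl17 31.2% in KO + LEENE. With these 3 left out, chosen after seeing the data, the large subunit had 0.262%, 1.2% and 0.114% and the small subunit 0.275%, 0.749% and 0.239%. KO + GFP was thus still highest for both subunits, whereas for the large subunit KO + LEENE now lay under WT + GFP. The ratio of large to small subunit reads was 0.626 for WT + GFP, 0.774 for KO + GFP and 1.12 for KO + LEENE, but 0.624, 0.77 and 0.46 without Rpl17, so its order rests on that gene. With the leading member of each group left out it was 0.952, 1.61 and 0.478, so its size also rests on the other leading members.

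**Figure D1:**
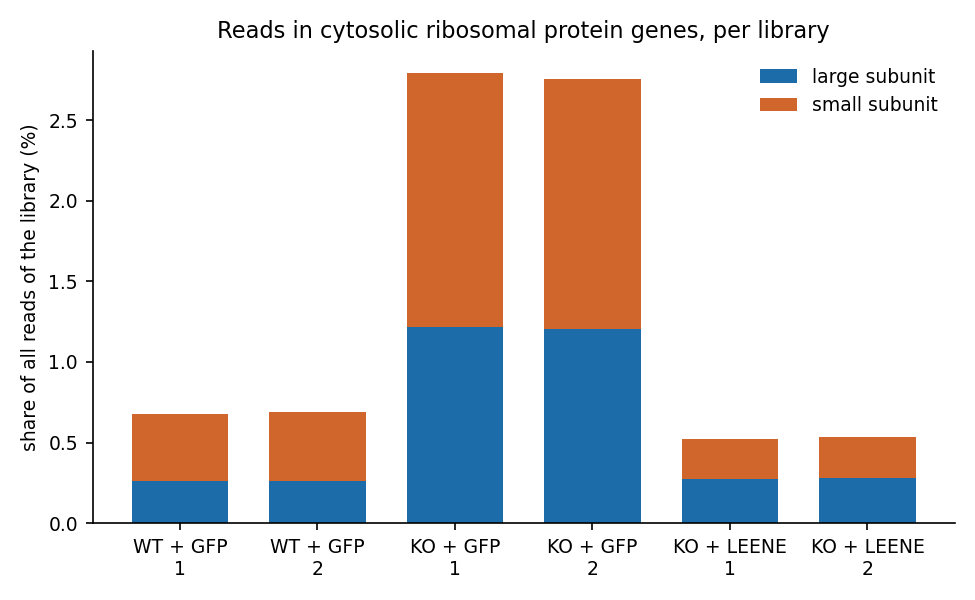
Share of all counted reads (%, y axis) in genes of the large (blue) and small (orange) subunit, 1 stacked bar for each of the 6 libraries. Both KO + GFP bars reach 2.76% or more, and the other 4 stay at or under 0.688%.

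Fibroblast and macrophage marker lists were also highest in KO + GFP, and erythroid markers were not. Lymphoid and neutrophil lists were highest in WT + GFP, and mural and skeletal muscle lists in KO + LEENE. Each of these lists took at most 0.00486% of reads in any library. The 7 fibroblast markers took 0.0062% and 0.00691% of reads for WT + GFP, 1.59% and 1.59% in KO + GFP, with 0.00819% and 0.00826% for KO + LEENE. Dcn, the proteoglycan decorin of fibroblasts, led with 63633 and 40842 reads for KO + GFP against 42 to 62 in the other libraries, whereas Lum and S100a4 were at 0 in both knockout groups. Pdgfra did not rise, with mean CPM of 35.9 for WT + GFP, 23.45 for KO + GFP and 36.8 for KO + LEENE. It was not called for KO + GFP against WT + GFP. The 10 macrophage markers took 0.003% and 0.00405%, then 0.0843% and 0.0807%, then 0.00175% and 0.00134%. Among them Mrc1, Adgre1, Lyz2 and Fcgr1 were called higher for KO + GFP against WT + GFP, but C1qb was lower, with 1 and 5 reads against 32 and 37. Itgam was at 0 for KO + GFP, C1qa, Cd14, Cd68 and Itgam in KO + LEENE, and Cd68 for WT + GFP. The 5 erythroid markers took 0.257% and 0.266%, 0.123% and 0.127%, and 0.091% and 0.0866%. Their part in the ribosomal protein result was not tested, and in bulk cells more cells of a type and more RNA per cell cannot be told apart.

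**Figure D2:**
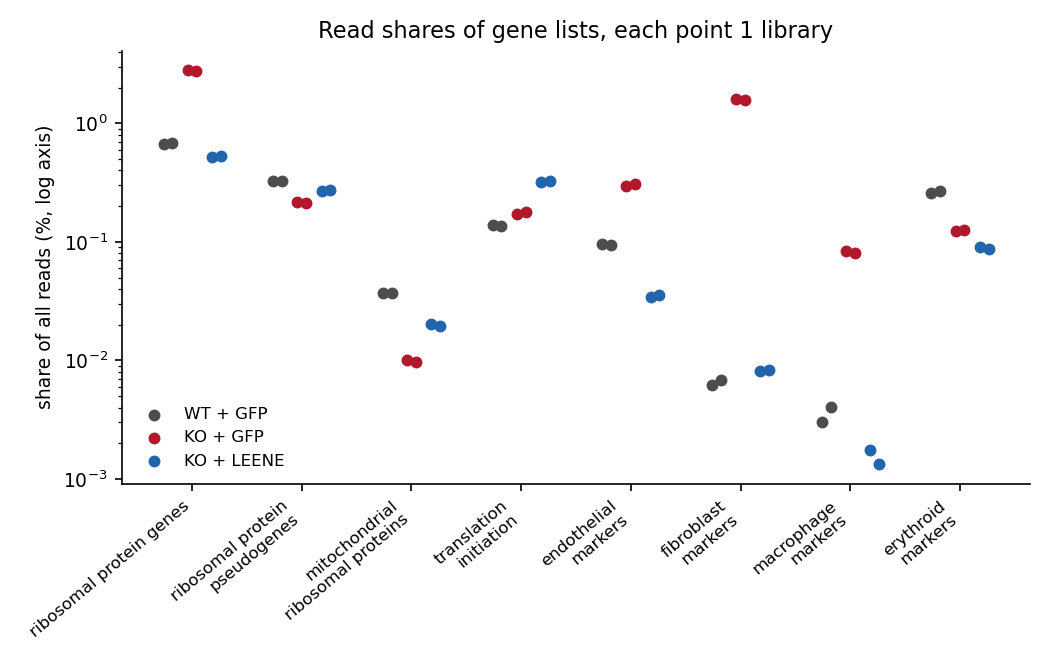
Share of all reads (%, log axis) of 8 gene lists, each point 1 library and each color 1 group. Ribosomal protein genes, fibroblast and macrophage markers were highest in KO + GFP, as were endothelial markers with Emcn counted but not without it, whereas ribosomal protein pseudogenes, mitochondrial ribosomal proteins and erythroid markers were highest in WT + GFP and initiation factors in KO + LEENE.

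The highest member was a different gene in each group, while Rpl37 stood second in both GFP groups. On the CPM scale, a member's reads relative to the total of its library, Rps27a, Rpl37 and Rps7 led in WT + GFP, Rps9 and Rpl37 in KO + GFP, and Rpl17, Rps4x and Rps3 in KO + LEENE. The 5 highest members of each group held 56.4%, 59.9% and 61% of the members' reads. Compared per kilobase of exon, on a kit that reads 3′ ends, the middle of the 77 members was at 7.36, 30.4 and 4.47 CPM per kb, with Rpl37 highest in WT + GFP at 1182 and Rpl17 highest in KO + LEENE at 2118. The lowest decile lay at 0.269, 0.292 and 0.214 CPM per kb. Members of WT + GFP and of KO + LEENE thus spanned more than 3 orders of magnitude from the lowest decile to the highest member.

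Libraries of one group nevertheless gave nearly the same order of members. Spearman's rho of member CPM between the 2 libraries of a group was 0.981 to 0.993, as a description over 77 genes. Between groups it was 0.512 to 0.529 for WT + GFP with KO + GFP, 0.595 to 0.63 for WT + GFP with KO + LEENE and 0.424 to 0.449 for KO + GFP with KO + LEENE. Over all tested genes the same measure was 0.954 to 0.971 within groups and 0.2 to 0.237 between them. The 77 members include those that failed the filter on low counts, and over the 66 that passed it rho was 0.990 to 0.996 within groups and 0.201 to 0.452 between them. Among members with at least 20 reads in both libraries of a group, the middle absolute log2 ratio between the libraries was 0.124, 0.0574 and 0.122.

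**Figure D3:**
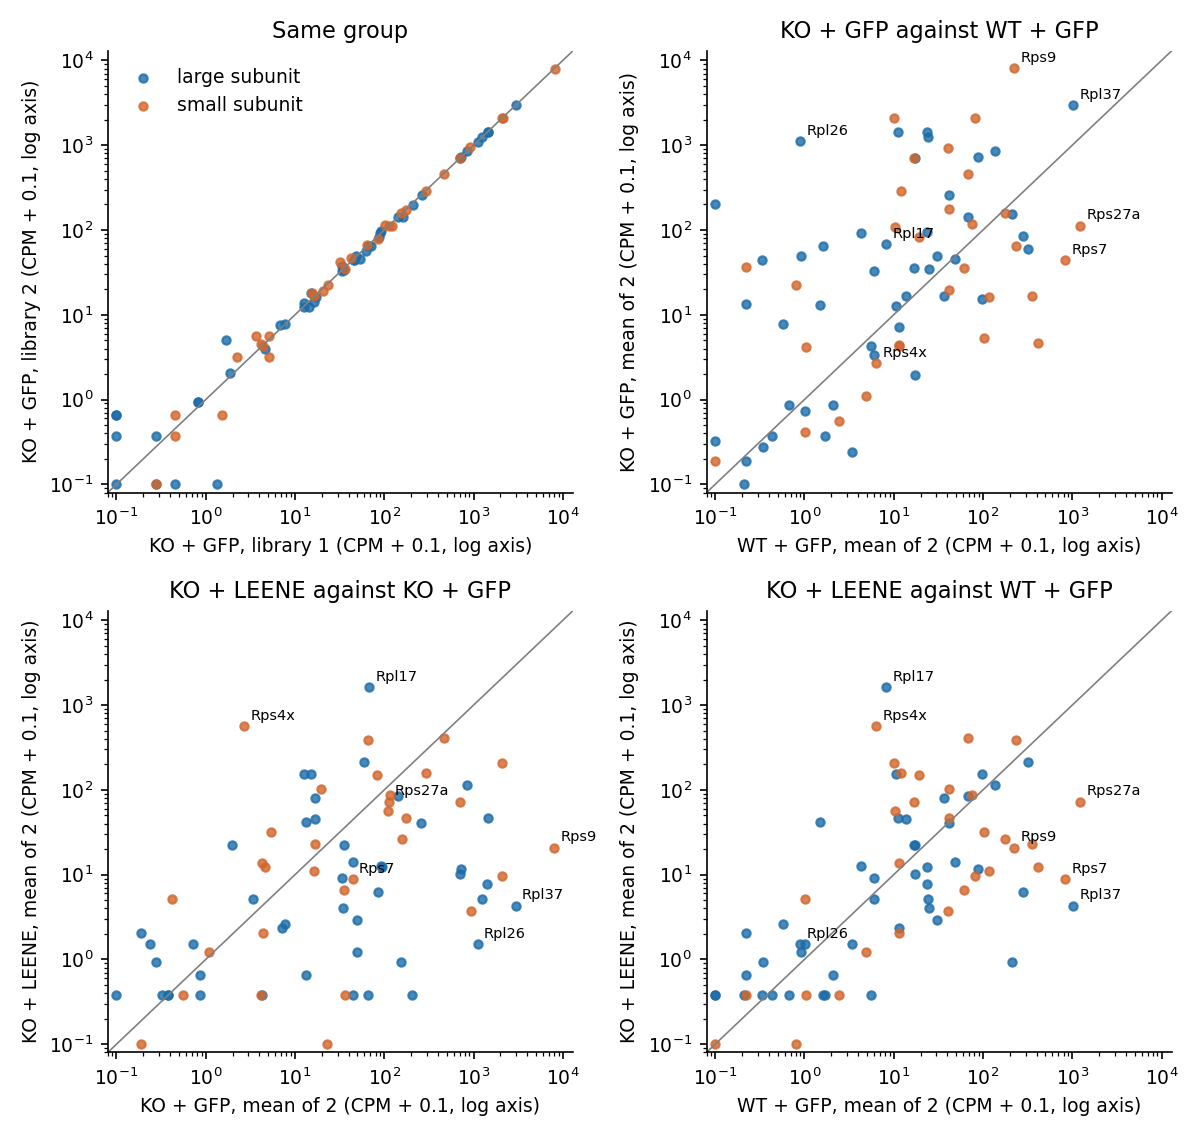
CPM + 0.1 of the 77 members on log axes, in the 2 libraries of KO + GFP (upper left) and as group means for the 3 comparisons, with the line of equality in grey and the large (blue) and small (orange) subunit apart. Members lie close to the line within a group and scatter on both sides of it between groups, as with Rps9 at 223 CPM for WT + GFP and 8037 for KO + GFP.

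Of the 72 members with more than 3 reads in some library, 41 had their highest scaled reads for KO + GFP, 21 for WT + GFP and 10 for KO + LEENE. Both libraries of that group lay above all 4 others for 39, 18 and 9 of them. Among all 8903 genes tested this was so for 28.3%, 30.4% and 28.6%, in the same order. With library size as the only scaling, the 72 members split into 36, 21 and 15.

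**Figure D4:**
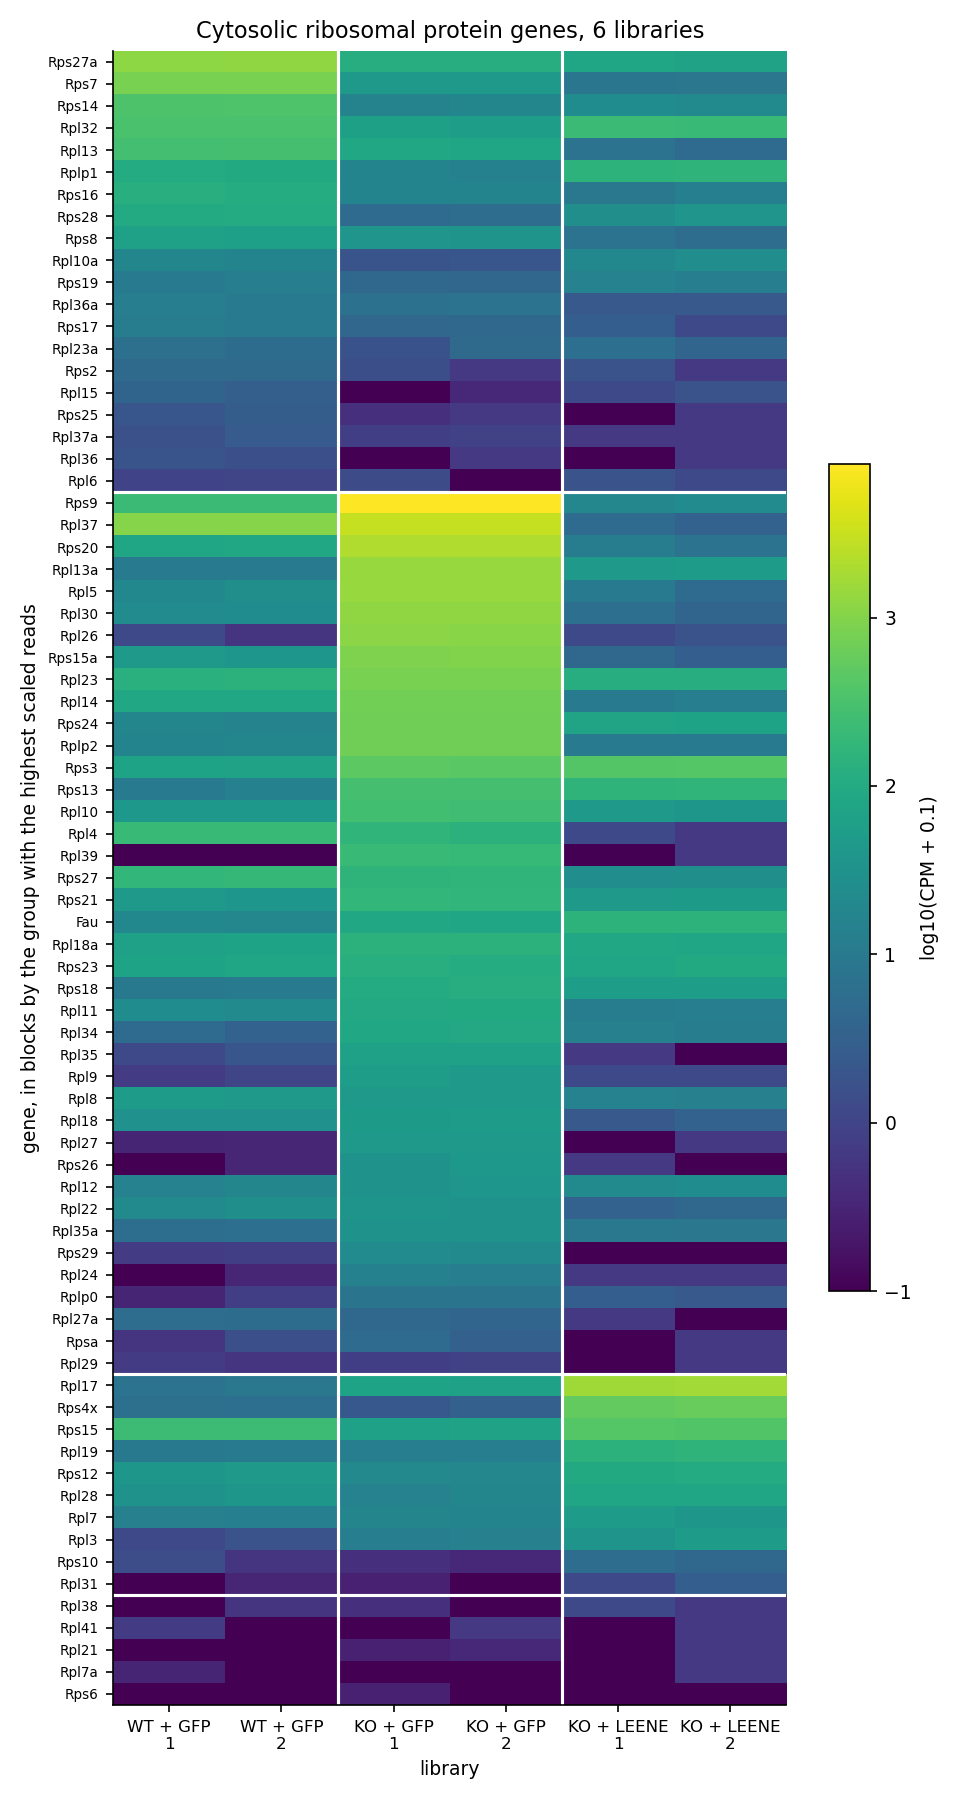
log10(CPM + 0.1) of 75 members (rows) in the 6 libraries (columns), in blocks by the group with the highest scaled reads, the last block holding the 5 members at or under 3 reads everywhere. The 2 columns of a group look alike, and the block of members highest in KO + GFP, with 40 rows, is the largest.

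Some members had few reads. At or under 3 reads in both libraries were 13 of the 77 members in WT + GFP, 10 for KO + GFP and 23 for KO + LEENE. Of the 66 members that passed the filter on low counts these were 6, 2 and 13 (9.09%, 3.03% and 19.7%), against 18.1%, 22.9% and 23.6% of all genes that passed it. KO + LEENE had the fewest reads, and 3 reads there are 1.67 or 1.69 CPM against 0.535 to 0.827 CPM in the other libraries. Rpl7a, Rpl21, Rpl38, Rpl41 and Rps6 had at most 3 reads in every library. Rps6 encodes the classical substrate of S6 kinase. At this depth its absence from a library cannot be told from a level under the floor of 3 reads. The 66 members tested were 37 of the large and 29 of the small subunit, and 39 of them had at least 10 reads in every library.

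The first comparison, KO + GFP against WT + GFP and called KO in what follows, asked what loss of Leene changed. As names of comparisons, KO and LEENE OE below stand for all that differed between the groups, the marker levels above included. With edgeR's quasi-likelihood test and an adjusted P under 0.05, 42 of the 66 tested members were higher (63.6%), 19 were lower (28.8%) and 5 were not called. Of all 8903 tested genes, 70.1% were called, 34.2% higher and 35.9% lower. The large subunit had 27 higher and 6 lower of 37, and the small subunit 15 higher and 13 lower of 29. The median log2 fold change was 1.795 for members, 2.47 for the large subunit and 0.30 for the small, and -0.09 for all genes. With library size as the only scaling, 38 members were higher and 23 lower, with a median of 1.31. Calls among members thus leaned to KO + GFP in the large subunit, whereas the small subunit was nearly balanced.

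Rps9, at the mRNA entry side of the small subunit, was at 224 and 222 CPM for WT + GFP, 8118 and 7956 for KO + GFP, with 18.6 and 22.9 for KO + LEENE. It rose by a log2 fold change of 5.65 ± 0.12 (SE) in KO + GFP, with adjusted P = 5.35e-269. No other member reached this level in CPM in any library.

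Rpl13a, which as a free protein takes part in translational control after interferon, was at 11 and 10.9 CPM for WT + GFP, 1447 and 1446 for KO + GFP, with 43.5 and 50.2 for KO + LEENE, a log2 rise of 7.52 ± 0.16 by KO. Its libraries stood apart between all 3 groups.

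Rpl26, which lies near the exit of the peptide tunnel, had 5 and 2 reads for WT + GFP, 6309 and 3963 for KO + GFP, with 2 and 3 for KO + LEENE. Its log2 rise in KO + GFP was 10.84 ± 0.21. Rpl39, a tunnel protein encoded on the X chromosome, had no read in either WT + GFP library and 1168 and 708 for KO + GFP, and was at least 359-fold higher there, counted against a floor of 3 reads per library. Both were thus found almost entirely in the KO + GFP libraries.

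Rpl5, which with Rpl11 binds Mdm2 when it is not in ribosomes, was at 19.9 and 26.9 CPM for WT + GFP, 1441 and 1423 for KO + GFP, with 10.2 and 5.02 for KO + LEENE, a log2 rise of 6.42 ± 0.14 by KO. Its partner Rpl11 rose by 2.47 ± 0.12, from 111 and 93 reads to 512 and 348. Exons of other genes cover 26.7% of Rpl5, and reads from them cannot be told apart.

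Among the falls in KO + GFP, Rps14, known for erythroid failure when a copy is lost, was at 348 and 362 CPM for WT + GFP, 15.4 and 18.2 for KO + GFP, with 24.3 and 21.2 for KO + LEENE, a log2 fold change of -3.94 ± 0.11. Rps28 and Rps7 followed with -3.81 ± 0.17 and -3.77 ± 0.10. Rps7 was at 826 and 849 CPM for WT + GFP and at 42.3 and 46.1 for KO + GFP. Rps27a, made as a fusion with ubiquitin, was at 1213 and 1226 CPM, 113 and 112, and 76.8 and 68.7, a log2 fold change of -2.96 ± 0.11. These falls were of small subunit genes, whereas the rises of Rpl39, Rpl26, Rpl13a and Rpl5 were of the large subunit.

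The next comparison, KO + LEENE against KO + GFP, asked what LEENE OE, the overexpression of LEENE, changed in the knockout. Here 12 of the 66 members were higher (18.2%), 48 were lower (72.7%) and 6 were not called. Of all tested genes, 67.8% were called, 32.8% higher and 34.9% lower. The large subunit had 7 higher and 27 lower of 37, and the small subunit 5 higher and 21 lower of 29. The median log2 fold change was -3.05 for members, or -3.06 with those at the floor set to their bound, and -0.01 for all genes. With library size as the only scaling, 18 were higher and 45 lower, with a median of -1.89. This comparison shares the KO + GFP libraries with the previous one, so a member high in these libraries tends to appear in both with opposite signs.

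Rpl37, the leading large subunit gene of KO + GFP, was at 1031 and 1019 CPM for WT + GFP, 2995 and 2944 for KO + GFP, with 5.08 and 3.35 for KO + LEENE. Its log2 fold change in KO + LEENE against KO + GFP was -10.59 ± 0.19. For Rps9 the value was -9.74 ± 0.15, and for Rps15a -9.11 ± 0.19, from 912 and 941 CPM to 4.52 and 2.79. Rpl26 was 1770-fold lower, with an exact 95% counting interval of 757 to 5440. Rpl39, with 0 and 1 read, was 1610-fold lower, with an interval of 289 to 63800. Counting error alone is covered by these intervals.

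Of the rises by LEENE OE, Rps4x, the X-linked form of a small subunit gene, was at 6.4 and 6.06 CPM for WT + GFP, 2.14 and 3.03 for KO + GFP, with 540 and 591 for KO + LEENE. Its log2 fold change was 6.66 ± 0.16, with adjusted P = 4.47e-238. Rpl17, which lines the peptide tunnel, was at 7.28 and 8.97, 71.4 and 64.3, and 1617 and 1666 CPM, a log2 fold change of 3.44 ± 0.11. Rpl17 differed between all 3 groups, lowest in WT + GFP and highest in KO + LEENE. Rpl19, of a bridge between the subunits, was at 9.7 and 11.2, 12.5 and 12.4, and 146 and 159 CPM, a log2 fold change of 2.45 ± 0.15. Rplp1 and Rps28 followed with 2.17 ± 0.14 and 1.45 ± 0.26. Exons of other genes cover 11.4% of Rpl19 and 6.01% of Rps28.

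Against WT + GFP, KO + LEENE had 16 members higher (24.2%), 35 lower (53%) and 15 not called, where 70.7% of all tested genes were called, 33.9% higher and 36.9% lower. With library size as the only scaling, which moves the median of all genes to -0.57, 1.07 and 0.50 in the 3 comparisons in the order given here, 21 were higher and 28 lower, and the member median was -0.12. The large subunit had 7 higher and 19 lower, the small 9 higher and 16 lower. The median log2 fold change was -0.79, or -0.92 with members at the floor set to their bound, against -0.11 for all genes. Rpl17 and Rps4x were the largest rises, with 6.99 ± 0.14 and 5.83 ± 0.13, and Rpl19 and Rps13 rose by 3.20 ± 0.16 and 3.05 ± 0.14. Rpl37 was the largest fall, with -8.58 ± 0.18. Rpl4, which reaches into the peptide tunnel, had 958 and 851 reads for WT + GFP and 2 and 1 for KO + LEENE, 394-fold lower with a counting interval of 135 to 1910. Rps7 and Rpl13 followed with -7.25 ± 0.15 and -6.17 ± 0.16. The counts called and the member median thus moved with the scaling, as did the median of all genes. With both scalings the member median lay under that of all genes, at -0.79 against -0.11 and -0.12 against 0.50. Some of the leading members were far higher in KO + LEENE than in WT + GFP.

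**Figure D5:**
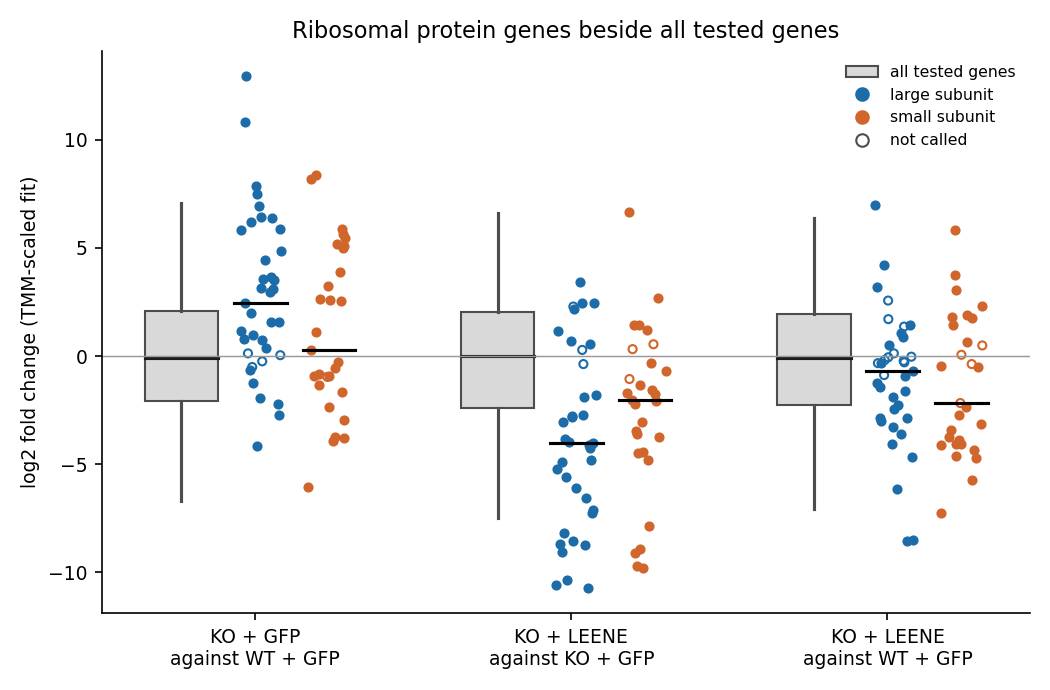
Fitted log2 fold changes (y axis) in the 3 comparisons for tested members of the large (blue) and small (orange) subunit, filled where called, with black lines at their medians. Grey boxes give the quartiles and median of all 8903 tested genes with whiskers to the 5th and 95th percentiles. Points of members at or under 3 reads in a group depend on the prior count, and the large subunit median lies at 2.47 for KO + GFP against WT + GFP.

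The 3 stalk proteins, which form the arm that recruits elongation factors, did not move together. Rplp0 had 1 and 3 reads for WT + GFP, 43 and 28 for KO + GFP, with 5 and 4 for KO + LEENE, 23.4-fold higher in KO + GFP with a counting interval of 8.74 to 88.1. Rplp2 was at 16.1 and 18.2 CPM, 705 and 700, and 10.2 and 10.1, a log2 rise of 5.84 ± 0.12 by KO. Rplp1 went the other way, at 103 and 94 CPM, 16.1 and 14.1, and 149 and 158, a log2 fold change of -2.20 ± 0.13 by KO. Between KO + LEENE and WT + GFP, Rplp1 differed by -0.03 ± 0.10 on the log2 scale, a value that was 0.64 with library size as the only scaling.

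Fau, whose product is cut into a ubiquitin-like protein and a small subunit protein, was at 19.2 and 18.7 CPM for WT + GFP, 85.9 and 78.1 for KO + GFP, with 149 and 146 for KO + LEENE. It rose by 2.61 ± 0.13 on the log2 scale in KO + GFP. Its difference between KO + LEENE and KO + GFP was -0.31 ± 0.10 in the scaled fit but 0.84 with library size only, so it has no firm direction. Rpl10, a late-joining large subunit protein encoded on the X chromosome, was at 40.6 and 42.2, 262 and 257, and 42.4 and 39.1 CPM, a log2 rise of 3.13 ± 0.09 by KO. Rpl3, next to the peptidyl transferase center, had 5 and 7 reads, 70 and 49, and 62 and 88, with a log2 rise of 3.67 ± 0.36 by KO. Its mean CPM was 1.4 for WT + GFP, 13 for KO + GFP and 42.1 for KO + LEENE. It was called higher for KO + LEENE than for KO + GFP, by 0.55 ± 0.21 on the log2 scale. Rpsa, also known as a laminin receptor precursor, had 2 and 6, 28 and 11, and 0 and 1 reads, with a log2 rise of 2.63 ± 0.53. The small counts of Rpl3 and Rpsa leave wide errors.

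Of the tested members, 43 (65.2%) were called in all 3 comparisons, as were 29.8% of all tested genes, and Rpl23a was called in none. Rpl23a had 29 and 22 reads for WT + GFP, 9 and 18 for KO + GFP, with 11 and 7 for KO + LEENE, and other genes' exons cover 62.3% of it. Rpl31, Rpl37a, Rpl36, Rpl29, Rpl6 and Rps25 had over 3 reads in some library but were not tested, with at most 11 reads.

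Unstranded counting of uniquely aligned reads can lose or misplace reads of genes with near-identical copies, of which ribosomal protein genes have many. The last 200 bases of the transcript matched a further place in the GRCm39 genome over at least 180 bases at 95% identity or more for 34 of the 77 members (44.2%), up to 44 places for Rpl7a. For 178 other genes of translation and ribosome biogenesis this was so for 15.2%. The median of the highest read count of a member in any library was 553 for the 43 members with no such copy and 233.5 for the 34 with one. Rps6 had 15 further copies and Rpl7a had 44, but Rpl21 had none by this match. Across members, Spearman's rho of copy number with highest reads was -0.22 (n = 77), as a description. Exons of another gene overlapped 30 members. Among the 41 tested members without overlap, 28 were higher (68.3%) and 11 lower (26.8%) by KO, against 34.2% and 35.9% of all tested genes. By LEENE OE, 6 were higher (14.6%) and 32 lower (78%), against 32.8% and 34.9%.

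The annotated ribosomal protein pseudogenes differed from the members in their summed share, and single pseudogenes were not compared with their parent genes. Together the 275 listed took 0.327%, 0.216% and 0.27% of reads for WT + GFP, KO + GFP and KO + LEENE. Of the 94 tested, 42 were higher (44.7%) and 36 lower (38.3%) by KO, against 34.2% and 35.9% of all tested genes. Among 10 paralogs with their own genes, Rpl36al had 5343 and 4957 reads for WT + GFP, 6 and 2 for KO + GFP, with 2 and 0 for KO + LEENE, and fell by 9.89 on the log2 scale in KO + GFP (SE 0.20). Rps27l had 92 and 102, 4254 and 2696, and 15 and 29 reads, a log2 rise of 5.54 ± 0.12. Of 6 tested paralogs, 3 were higher (50%) and 3 lower (50%) by KO.

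Ribosome components outside the symbol rule also split. Rack1, a scaffold on the small subunit, had 384 and 312 reads for WT + GFP, 12059 and 8011 for KO + GFP, with 671 and 661 for KO + LEENE, a log2 rise of 5.24 ± 0.13 by KO. Rps3a1 had 69 and 63, 5 and 2, and 32 and 39 reads, a log2 fold change of -3.80 ± 0.41.

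Counts for the wider translation machinery are given beside the shares of all tested genes above, and no difference from the members was tested. Of 32 tested initiation genes, 11 were higher (34.4%) and 11 lower (34.4%) by KO, close to the 34.2% and 35.9% of all tested genes. By LEENE OE, 9 were higher (28.1%) and 17 lower (53.1%), with a median of -1.12, where 32.8% and 34.9% of all tested genes were called. In KO + GFP, Eif3k had the largest rise and Eif3f, another subunit of the same initiation complex, the largest fall, with 7.20 ± 0.18 and -6.82 ± 0.17. Of 10 tested elongation and nascent chain genes, 3 were higher (30%) and 6 lower (60%) by KO, and 7 higher (70%) and 2 lower (20%) by LEENE OE. Tpt1, which encodes the translationally controlled tumor protein, had 337 and 293 reads for WT + GFP, 87 and 54 for KO + GFP, with 26 and 26 for KO + LEENE. Library totals were 5602603 and 3625419 reads for KO + GFP but 1770992 and 1791336 for KO + LEENE. The raw reads of Tpt1 therefore do not show a further fall between these groups.

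Ribosome biogenesis genes had 8 higher (34.8%) and 6 lower (26.1%) of 23 by KO and 11 higher (47.8%) and 5 lower (21.7%) by LEENE OE. Ubtf, the factor that keeps ribosomal DNA open, had 27 and 17, 1089 and 682, and 5 and 3 reads, a log2 rise of 5.71 ± 0.14 by KO and a log2 fold change of -7.53 ± 0.20 by LEENE OE. Among 21 tested mitochondrial ribosomal proteins, 6 were higher (28.6%) and 11 lower (52.4%) by KO, and 4 higher (19%) and 7 lower (33.3%) by LEENE OE. Their share of reads was 0.0371%, 0.00987% and 0.02%, lowest in the group where the cytosolic members were highest. Of 12 tested regulators of pyrimidine-tract mRNAs and mTORC1, 5 were higher (41.7%) and 5 lower (41.7%) by KO. Mtor itself had 452 and 423 reads for WT + GFP, 11 and 12 for KO + GFP, with 30 and 33 for KO + LEENE, and Larp1 had 29 and 40, 9 and 9, and 180 and 173.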

How the data were processed

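The authors deposited 1 file of counts per library, made with featureCounts 2.0.0 from STAR 2.5.4b alignments, per the file headers and the submitters' processing notes. The headers name Ensembl 84 on GRCm38 and unstranded counting, whereas the study's methods name another build and tool. Libraries came from a 3′ kit, and no molecule-identifier step is named, so intervals cover counting error only. Genes were named from GENCODE M39 by identifier (43465 of 47729 matched). edgeR 4.0.16 (filterByExpr, TMM, quasi-likelihood test, 1 mean per group over all 6 libraries) tested 8903 genes, and Benjamini-Hochberg adjustment covered all of them. DESeq2 1.42.0, the study's test, was an alternative. Standard errors are the log2 fold change divided by the root of F. TMM factors were 0.66 to 0.713 in KO + GFP, 0.955 and 0.959 in WT + GFP and 1.52 in KO + LEENE. The floor was 3 reads per library: folds against groups with 1 to 3 reads are ratios of summed scaled reads with exact 95% intervals. The common biological coefficient of variation was 7.8%. A simulated comparison of KO + GFP with WT + GFP altered 200 of 7818 genes. Of those 200, 85.9% were called, and 7 calls were wrong. In the data 70.1% of tested genes were called, so the simulation cannot show how the test behaves where most genes differ. Copies were found with BLAST+ 2.17.0. Members with values in every library were those with known central roles, the 5 most abundant of each subunit, and the 5 largest called rises and falls per comparison with at least 20 CPM. Values of Rpl11, Dcn, Emcn, Kdr, C1qb and Cdh5 were added after they were seen. Some genes that this rule names are not reported here. Members and lists were chosen with earlier results of these data known.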

Additional observations from a re-analysis of the deposited data

How the results depend on the processing

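Counts of members called held within 1.5 times under library size only, DESeq2 size factors, DESeq2, no count filter, the 4 compared libraries alone and thinning to the smallest total. With at least 10 reads in every library, 39 members were tested, of which 25 were higher and 39 called in KO + GFP against WT + GFP, 27 lower and 36 called in KO + LEENE against KO + GFP, and 20 lower in KO + LEENE against WT + GFP. Without members overlapping another exon, 41 were tested, with 11 lower and 39 called, then 6 higher and 38 called, then 8 higher, 21 lower and 29 called. Fewer genes tested accounts for both by construction. Leaving out each library in turn gave 41 to 43 higher and 17 to 20 lower by KO, 11 to 12 higher and 47 to 48 lower by LEENE OE, and 14 to 16 higher and 32 to 37 lower for KO + LEENE against WT + GFP. With 1 library left in a group, it is assumed to vary like the others. Same-numbered libraries did not deviate together (correlations 0.0306, 0.0138 and 0.0192). With the replicate number as a block the counts stayed at 42 higher and 19 lower, 12 and 48, and 16 and 35.

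Shares moved with the total used, in the order WT + GFP, KO + GFP and KO + LEENE. Without mitochondrially encoded genes, the large subunit had 0.53%, 1.84% and 0.42% and the small 0.846%, 2.38% and 0.374%. Without the 20 most abundant genes, these were 0.781%, 2.55% and 0.655%, and 1.25%, 3.29% and 0.584%. Without overlapping members, they were 0.182%, 0.671% and 0.214%, and 0.263%, 1.25% and 0.174%. With 2 choices made after seeing the data, values also moved. Without Rps9 and Rpl37, the large subunit had 0.16% and 0.914% and the small 0.397% and 0.76% in WT + GFP and KO + GFP. Without the leading member of each group, the large subunit had 0.114% in KO + LEENE and the small 0.275%, 0.749% and 0.239%. Leaving out a library gave 0.261% to 0.263%, 1.2% to 1.22% and 0.276% to 0.281% for the large and 0.414% to 0.424%, 1.55% to 1.57% and 0.246% to 0.251% for the small subunit. KO + GFP stayed highest under each. Members at or under the floor in WT + GFP numbered 20 after thinning and 22 with a floor of 10 reads, and 15, 10 to 14 and 24 in the 3 groups when a library was left out.

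Of 1174 log2 fold changes of 29 named members under these settings, 1127 kept direction and call, 18 lost the call, 9 gained it and 20 changed sign. The sign changes were Rpl4 in KO + GFP against WT + GFP (-0.44 with library size, -0.035 with DESeq2, -0.047 without a filter, -0.049 thinned, -0.113 without KO + GFP library 1), Rpl23a (-1.306 to 0.193 when a library was left out, and by LEENE OE 0.78 with library size and -1.075 to 0.437 when a library was left out), Fau (0.84) and Rps14 (0.47) by LEENE OE with library size, and, against WT + GFP, Rpl26 (-0.19 thinned, and -0.316 to 0.795 when a library was left out) and Rplp1 (0.64 with library size, 0.003 with DESeq2 size factors, 0.013 with DESeq2, 0.017 without a filter, 0.095 thinned and -0.100 to 0.062 when a library was left out). Of these, Fau and Rps14 were called in both directions. The cause was not tested. Depth limits low members most in KO + LEENE.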
